A study of Homo sapiens with 16 samples.

Results

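The kallikrein locus on chromosome 19 was examined through 6 genes, KLK1, KLK15, KLK3, KLK2, KLKP1 and KLK4, chosen as the androgen-driven end of the cluster. All 6 were found, each under 1 Ensembl identifier, among the 60605 identifiers of the 2 deposited count tables. The data are PRO-seq, a nuclear run-on assay in which engaged RNA polymerases incorporate a labelled nucleotide, so a gene's count reflects polymerases transcribing it and not its stored mRNA. The cells were LNCaP, an established androgen-responsive human prostate cancer line, grown in serum-containing medium in every group. Batch 1 held mock cells and cells given 6 Gy of ionizing radiation (IR), with no times given; each had replicates 1 and 2, and each replicate had a library named t1 and a library named t2. Batch 2 held 4 groups with replicate numbers 3 and 4: DMSO vehicle for 90 min, vehicle with 6 Gy IR after 30 min and collection 60 min later, 10 µM enzalutamide for 90 min, and 10 µM enzalutamide with 6 Gy IR at the same times. The labels do not explain t1 and t2, so those counts were summed and each number was taken as 1 replicate. They do not say either whether replicates were separate cultures, so p-values measure only the spread between these samples. With 2 replicates per group and 1 cell line, all values describe these 12 replicate samples.

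Tissue kallikreins are secreted serine proteases. KLK3 encodes prostate-specific antigen (PSA), which liquefies semen and is the serum marker of prostate cancer, and KLK2 encodes the trypsin-like protease that can activate pro-PSA. Both are textbook androgen-induced genes, with androgen response elements near and upstream of their start sites. Enzalutamide is an antiandrogen used against prostate cancer. KLK4 encodes a further prostate kallikrein, also active in tooth enamel, KLK15 a kallikrein described as able to activate pro-PSA, KLK1 the true tissue kallikrein that releases kinins, and KLKP1 is a transcribed pseudogene.

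On GRCh38.p14 (hg38) the genes lie in the order KLK1 (chr19:50819146-50823787), KLK15 (chr19:50825289-50833574), KLK3 (chr19:50854915-50860764), KLK2 (chr19:50873439-50880567), KLKP1 (chr19:50882096-50896398) and KLK4 (chr19:50906351-50911395). RefSeq promoter sequences were at hand for 4 of the 6 members, KLK2, KLK3, KLK4 and KLK15. The 250 bases upstream of KLK3 (chr19:50854665-50854914, plus strand) and of KLK2 (chr19:50873189-50873438, plus strand) are shown because these 2 genes had the largest estimated enzalutamide changes, and those of KLK4 (chr19:50911396-50911645, minus strand) for comparison, its estimate being smaller by a difference that did not pass a test. Each runs 5′ to 3′ and ends at the base before the start site, and capitals mark a match to GNACANNNNGTNC, a loose form of the paired half-sites of an androgen response element, searched on both strands and chosen after the sequences had been seen.
KLK3: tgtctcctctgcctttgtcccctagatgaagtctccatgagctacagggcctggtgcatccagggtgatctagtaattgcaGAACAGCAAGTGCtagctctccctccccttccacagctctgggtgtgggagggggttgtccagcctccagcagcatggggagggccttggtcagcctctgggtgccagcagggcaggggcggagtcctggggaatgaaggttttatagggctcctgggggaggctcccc
KLK2: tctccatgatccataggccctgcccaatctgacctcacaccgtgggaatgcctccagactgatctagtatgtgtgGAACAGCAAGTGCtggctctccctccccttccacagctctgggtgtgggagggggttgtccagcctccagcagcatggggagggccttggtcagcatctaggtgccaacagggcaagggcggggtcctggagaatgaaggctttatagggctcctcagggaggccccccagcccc
KLK4: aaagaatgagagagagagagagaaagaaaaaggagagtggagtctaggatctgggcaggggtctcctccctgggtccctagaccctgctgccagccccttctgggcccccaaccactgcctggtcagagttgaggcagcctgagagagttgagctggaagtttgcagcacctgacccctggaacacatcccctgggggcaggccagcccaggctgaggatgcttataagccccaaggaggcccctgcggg
The same 13 bases were capitalised in KLK3 and KLK2, starting 169 bases before the KLK3 start site and 175 bases before that of KLK2. No match was found in the window of KLK4 or in that of KLK15 (chr19:50833575-50833824, minus strand). The loose pattern occurs in 1.81% of 35116 promoter windows of this length. The stricter GNACANNNTGTNC, itself contained in the loose pattern, occurs in 0.327% of them and in none of the 4 kallikrein windows. Upstream of their starts KLK2 and KLK3 were identical at 205 of 238 aligned bases (86.1%), with an unbroken shared run of 80 bases. These windows lie outside the gene spans, and identity within the spans was not measured. The labels do not say how any reads that fit both genes were counted, so the split of counts between KLK2 and KLK3 is uncertain.

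The libraries held 3438642 to 9363458 counts in batch 1 and 10494563 to 19905824 in batch 2. Levels are given as CPM, counts relative to the library size, scaled by the trimmed mean of M-values (TMM) within each batch. Luminal prostate markers summed to 2281 to 3138 CPM in every replicate sample, against 4.49 to 9.21 for basal, 8.22 to 12.8 for stromal, 45.0 to 65.3 for immune and 0.404 to 1.07 for neuroendocrine markers, of which 1 of 4 was at 0. The luminal list held 7 genes and each other list 4, and of the immune markers only CD68 had enough counts to be tested. The sums matched a luminal prostate cell in both batches but do not single out the LNCaP line.

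KLK2, KLK3, KLK4, KLK15 and KLKP1 were transcribed at measurable levels and KLK1 was near the counting floor. Scaled for gene length, the mock samples of batch 1 ran in the order KLK3 (30.6 ± 0.344 CPM per kb, SD, n = 2), KLK2 (23.8 ± 0.841), KLK4 (18.4 ± 2.26), KLK15 (8.88 ± 0.160), KLKP1 (2.25 ± 0.127) and KLK1 (0.344 ± 0.146). The replicates of neighbouring genes in this order did not overlap. In the vehicle samples of batch 2 the order was KLK2 (29.8 ± 7.42 CPM per kb), KLK4 (24.3 ± 1.86), KLK15 (8.65 ± 1.39), KLK3 (2.60 ± 0.436), KLKP1 (1.48 ± 0.227) and KLK1 (0.157 ± 0.0753). There only KLK2 and KLK4 had overlapping replicates. KLK1 received 3 to 21 counts per replicate sample, 0.214 to 2.08 CPM, and no fold change is given for it. KLK5 to KLK13, further along the cluster, received 0 to 13 counts each. KLK14, at the far end, received 17 to 68 counts, 1.57 to 4.43 CPM.

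KLK3 stood at different levels in the 2 batches. It was at 180 and 177 CPM in the mock samples of replicates 1 and 2, and at 17.0 and 13.4 CPM in the vehicle samples of replicates 3 and 4. KLK2, the paralog beside it, was at 165 and 174 CPM in the mock and at 250 and 175 CPM in the vehicle samples. KLK2 therefore took 47.8% to 52.6% of the summed KLK2 and KLK3 counts in the 4 batch 1 samples and 92.4% to 94.8% in the 8 batch 2 samples. The lowest batch 2 share, 92.4% in enzalutamide with IR replicate 4, has a 95% Wilson interval of 90.6% to 93.9%, and the highest of batch 1, 52.6% in IR replicate 2, one of 51.2% to 54.1%, both for counting error only.

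**Figure D1:**
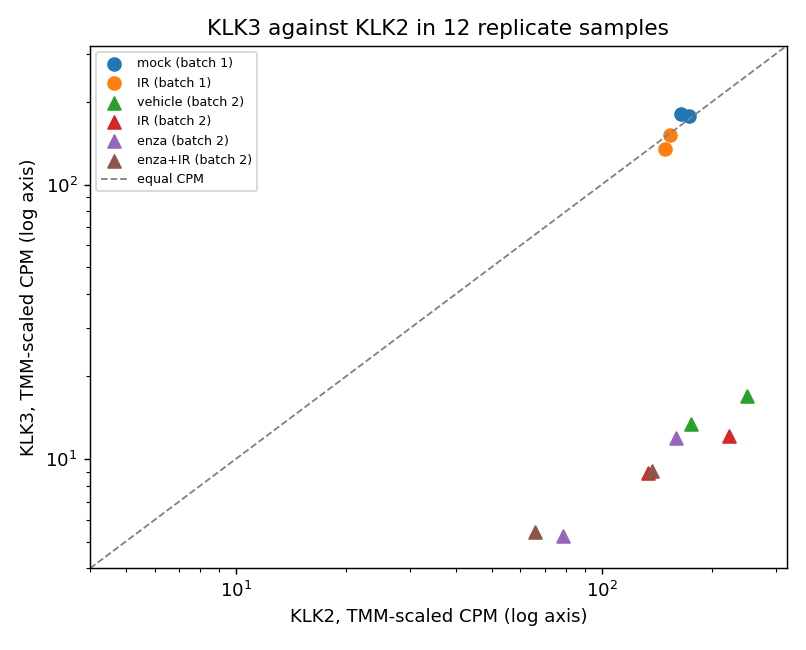
KLK3 against KLK2 level in TMM-scaled CPM on log axes, 1 point per replicate sample, with circles for batch 1, triangles for batch 2 and a dashed line at equal CPM. The 4 batch 1 samples lie along the line, and the 8 batch 2 samples lie below it, with KLK2 at 12.2 to 18.4 times KLK3.

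As a ratio of group means, KLK3 was 11.7-fold higher in mock than in vehicle samples, a log2 difference of vehicle over mock of -3.55. Among 18686 genes with at least 50 counts on average this was the 32nd lowest value, with 0.166% of genes below it, where the 5th to 95th percentiles ran from -1.49 to 0.96 with a median of 0.04. The other members moved far less between these groups: the vehicle level was 1.26 times the mock level for KLK2, 1.32 for KLK4, 0.974 for KLK15 and 0.658 for KLKP1. The summed level of 30 androgen-induced genes spanned 4634 to 5350 CPM in batch 1 and 3742 to 5759 CPM in batch 2. Unlike the ratios above, these spans cover all samples of each batch, with IR and enzalutamide samples included. The 2 tables were scaled separately and the batch coincides with the labels mock and vehicle, so batch, vehicle and counting cannot be told apart, and no test was made across them. All comparisons below are within a batch or carry batch as a term.

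Enzalutamide went with lower polymerase counts on the 5 transcribed members. KLK2 was at 250 CPM in vehicle and 160 in enzalutamide for replicate 3, and at 175 and 78.4 for replicate 4. With IR, KLK2 was at 222 without and 137 with enzalutamide for replicate 3, and at 134 and 65.9 for replicate 4. Every enzalutamide sample was thus below the sample of its own replicate number. The groups did not overlap without IR and overlapped narrowly with it, where replicate 3 with the drug was just above replicate 4 without it. Within replicate numbers the drug samples stood 36.1%, 55.3%, 38.5% and 50.8% below their partners.

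KLK3, the PSA gene, was at 17.0 and 11.97 CPM in vehicle and enzalutamide for replicate 3 and at 13.4 and 5.26 for replicate 4. With IR it was at 12.1 and 9.04 for replicate 3 and at 8.89 and 5.42 for replicate 4. Each drug sample was again below its partner, by 29.8%, 60.8%, 25.2% and 39.1%, and the groups overlapped only with IR. These batch 2 values rest on 57 to 284 counts per sample, against 849 to 4169 for KLK2.

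KLK4 went from 129 to 98.0 CPM in replicate 3 and from 116 to 80.5 in replicate 4 without IR, and from 126 to 114 and from 104 to 78.8 with IR. KLK15 went from 79.8 to 58.9 and from 63.5 to 46.8 CPM without IR, and from 67.6 to 58.2 and from 56.3 to 40.5 with IR. The pseudogene KLKP1 went from 23.5 to 18.4 and from 18.9 to 14.5 CPM without IR, and from 20.0 to 17.0 and from 17.2 to 13.5 with IR. Without IR, both enzalutamide samples lay below both vehicle samples for these 5 of 6 members, as they did for 12.3% of the 28651 genes tested; with IR this held for KLKP1 alone, 1 of 6, against 15.5%. All 5 members were lower in all 4 replicate pairs, as were 8.71% of genes. Replicate 4 was below replicate 3 for all 5 members in all 4 groups, by 10.3% to 56.0%. The share of all genes with this order was not counted, so it is not shown to be particular to these members. In these bulk samples fewer responding cells and less transcription per cell cannot be told apart.

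**Figure D2:**
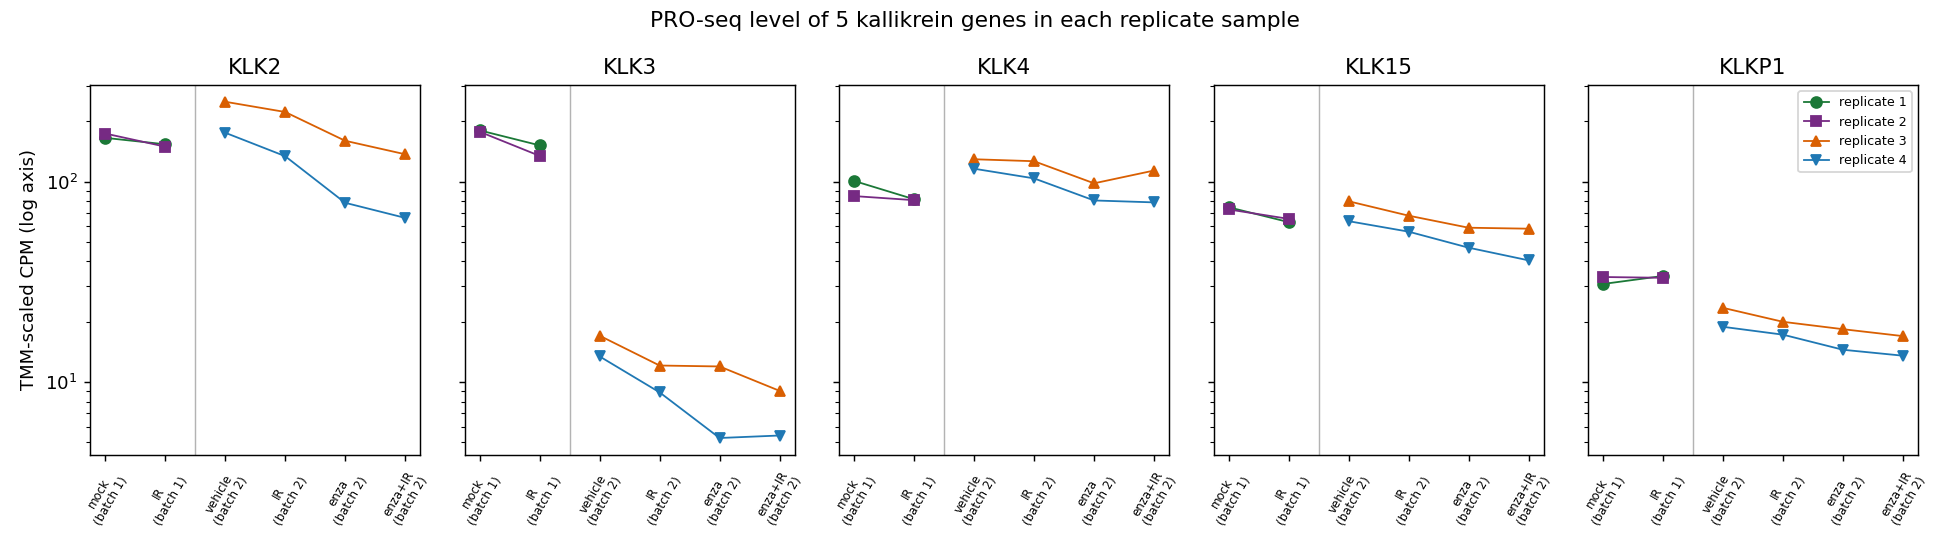
Level of KLK2, KLK3, KLK4, KLK15 and KLKP1 in TMM-scaled CPM on a shared log axis, 1 point per replicate sample, with lines joining samples of 1 replicate number and a vertical line between the separately scaled batches. Enzalutamide samples sit below their same-numbered samples without it in every panel, replicate 4 sits below replicate 3, and KLK3 is at 134 to 180 CPM in batch 1 and at 5.26 to 17.0 CPM in batch 2.

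Averaged over IR and fitted by edgeR's quasi-likelihood test with Benjamini-Hochberg adjustment over all genes, the enzalutamide log2 fold change of KLK2 was -0.82 ± 0.23 (SE, 4 against 4 samples), with an adjusted p of 0.549. Without a term for the replicate number, 0 of the 6 members passed the threshold of 0.05, where 0.0628% of all genes were called lower. At an unadjusted p under 0.05 there were 5 of 6 members, against 1780 of 28651 genes in either direction. DESeq2 called 0 of the 4 members to which it gave an adjusted p. When the replicate number was fitted as a block, edgeR called 5 of 6 members lower, against 0.667% of all genes. KLK2 then fell by 0.87 ± 0.07 on the log2 scale (adjusted p = 4.67e-08), which is 45.3% with a 95% interval of 39.9% to 50.2%. KLK3 fell by 0.70 ± 0.12 (adjusted p = 0.00204 with the block and 0.690 without).

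With the block, KLK15 fell by 0.39 ± 0.05 (adjusted p = 0.000168), KLK4 by 0.37 ± 0.06 (0.000704) and KLKP1 by 0.33 ± 0.07 (0.0323), all on the log2 scale. Without it their adjusted p-values were 0.599, 0.599 and 0.728. When each of the 8 samples was left out in turn with the block, KLK2, KLK3, KLK4 and KLK15 were called in all 8 fits, and KLKP1 only without enzalutamide replicate 3, its adjusted p reaching 0.146 in the others. The 2 fits gave nearly the same size of difference, -0.82 and -0.87 for KLK2, and differed in its error.

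Estimates were larger for KLK2 and KLK3 than for KLK4, KLK15 and KLKP1, but no ratio of KLK2 to another member passed a test. The log2 ratio of KLK2 to KLK4 was 0.17 ± 0.42 (SD, n = 4) with and 0.68 ± 0.26 without enzalutamide, a difference of -0.51 (two-sided exact permutation p = 0.114). For KLK2 to KLK15 the difference was -0.49 (exact permutation p = 0.0571) and for KLK2 to KLKP1 it was -0.55 (exact permutation p = 0.0857). Permuted within replicate numbers, all 3 gave an exact p of 0.0556, the smallest that those 36 regroupings allow. KLK2 to KLK3 differed by only -0.13 (exact permutation p = 0.429). After adjustment over the 4 ratios, the lowest p was 0.152, or 0.0741 within replicate numbers, so none passed 0.05. The share of KLK2 in the summed counts was 93.2% ± 0.651 with and 93.8% ± 0.807 without enzalutamide (exact permutation p = 0.429), a difference smaller than the spread between samples.

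**Figure D3:**
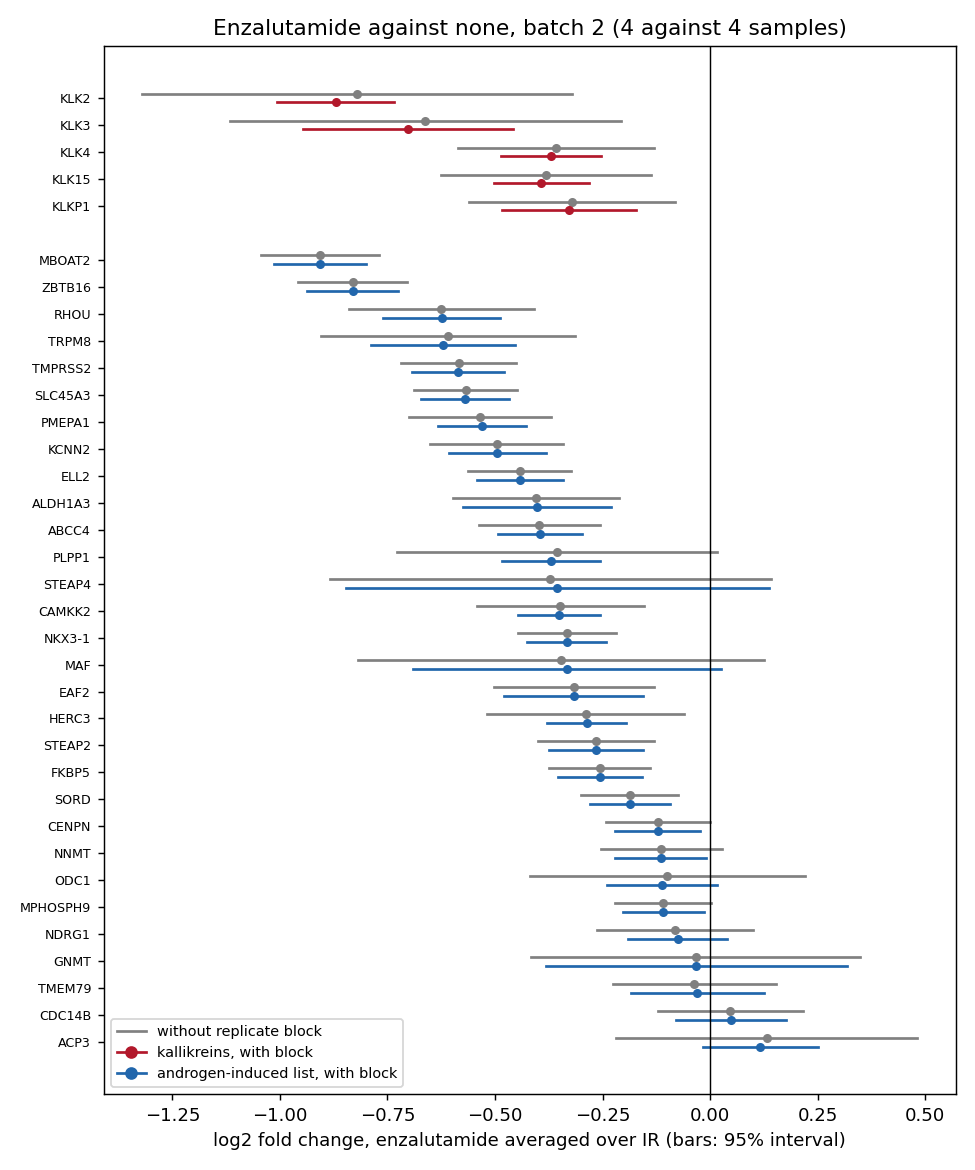
Log2 fold change for enzalutamide averaged over IR in batch 2, with 95% intervals, for 5 kallikrein genes and the 30 genes of the androgen-induced list, from edgeR without (grey) and with (coloured) the replicate block. Points of the 2 fits nearly coincide for the kallikreins, while the KLK2 interval narrows from -1.32 to -0.32 without the block to -1.01 to -0.74 with it.

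Without IR, the block fit called KLK2 (-0.89 ± 0.09, adjusted p = 7.64e-06 by edgeR), KLK3 (-0.83 ± 0.16, 0.0146), KLK4 (-0.47 ± 0.08, 0.00367) and KLK15 (-0.44 ± 0.08, 0.00621) lower, 4 of 6 members against 0.161% of all genes. In irradiated cells it called KLK2 alone (-0.85 ± 0.10, adjusted p = 2.32e-05), 1 of 6 against 0.164%, while KLK3 stood at -0.55 ± 0.18 (adjusted p = 0.421). Without the block edgeR called 0 of 6 in both settings, against 0.0105% of genes called lower in each. At an unadjusted p under 0.05 there were 4 and 1 of 6, against 734 and 859 of 28651 genes in either direction. DESeq2 called 0 of 4 and 0 of 6. With the block and 1 sample left out, KLK2 was called in all 8 fits of both settings. Without IR, KLK3 was lost without vehicle replicate 3, vehicle replicate 4 or enzalutamide replicate 4 (-1.29 to -0.57 over the 8 fits), KLK15 without vehicle replicate 3 or 4, and KLK4 without vehicle replicate 4. In irradiated cells KLK15 and KLK4 were called as well without enzalutamide replicate 3 or 4, and KLK3 without enzalutamide replicate 4. Without the block, 1 sample left out moved KLK3 without IR from -1.53 (without enzalutamide replicate 3) to -0.34 (without enzalutamide replicate 4), and KLK2 from -1.44 to -0.41 with the same samples. In irradiated cells KLK2 ran from -1.43 (without the combined replicate 3) to -0.39 (without the combined replicate 4), KLK3 from -0.95 to -0.23 and KLK4 from -0.54 to -0.030. No adjusted p of these members was under 0.05 in those fits. The difference between the 2 settings was itself tested as an interaction, and 0 of 6 members passed with or without the block, with 0 at an unadjusted p under 0.05 and 0 by DESeq2, where 0.00349% of genes passed with the block and 0% without it. For KLK2 the interaction was 0.04 with a 95% interval of -0.23 to 0.32, and for KLK3 it was 0.28 with an interval of -0.21 to 0.77, in the block fit. The 4 called without IR are thus not shown to respond differently under IR.

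Enzalutamide and IR together gave the lowest mean level of KLK2, KLK3, KLK15 and KLKP1 among the 4 groups of batch 2. Relative to vehicle of the same number, KLK2 was 45.3% and 62.4% lower and KLK3 46.9% and 59.7% lower. With the block edgeR called 5 of 6 members, against 5.02% of all genes called lower: KLK2 fell by 1.14 ± 0.10 (adjusted p = 3.10e-09), KLK3 by 1.11 ± 0.17 (5.33e-05), KLK15 by 0.55 ± 0.08 (3.19e-05), KLKP1 by 0.47 ± 0.11 (0.00710) and KLK4 by 0.37 ± 0.08 (0.00275) on the log2 scale. Without the block 0 of 6 passed, against 0.569% of genes, with KLK3 nearest at -1.08 ± 0.31 (adjusted p = 0.115 by edgeR). At an unadjusted p under 0.05 there were 5 of 6, against 4922 of 28651 genes in either direction. DESeq2 called 0 of 5. With the block and 1 sample left out, 3 to 5 members were called; KLK2, KLK3 and KLK15 were called in all 8 fits, KLK4 was lost without vehicle replicate 4 or without the combined replicate 4, and KLKP1 without those 2, without vehicle replicate 3 or without the combined replicate 3.

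**Figure D4:**
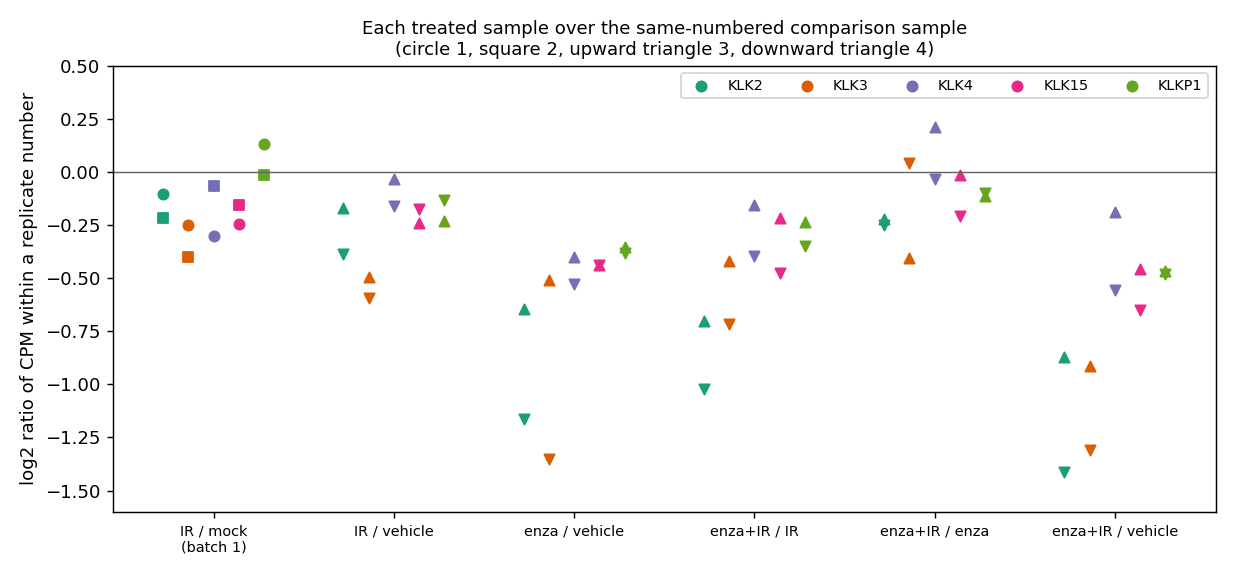
Log2 ratio of TMM-scaled CPM of each treated sample to the sample of the same replicate number it is compared with, for 5 kallikrein genes, with marker shape giving the replicate number. For enzalutamide over vehicle and for enzalutamide with IR over IR all ratios are below 0, with KLK2 and KLK3 between -1.35 and -0.42.

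IR alone gave smaller differences, and KLK3 was the member called most often. KLK3 went from 180 to 152 and from 177 to 134 CPM in batch 1, and from 17.0 to 12.1 and from 13.4 to 8.89 CPM in vehicle-treated cells of batch 2. It was thus lower after IR in all 4 replicate pairs, as were KLK2, KLK4, KLK15 and 13.3% of genes. KLKP1 was higher in replicate 1 of batch 1, at 1.10 times mock, and lower in the other pairs. Over both batches, with batch as a term and no block, KLK3 fell by 0.41 ± 0.09 on the log2 scale (adjusted p = 0.0115 by edgeR, 4 against 4 samples), 1 of 6 members where 1.66% of genes were called lower. The call was lost without IR replicate 2 of batch 1 (-0.36, adjusted p = 0.0822), without vehicle replicate 3 (-0.32, 0.0971), without IR replicate 4 of batch 2 (-0.31, 0.0823), or with only the t2 libraries of batch 1 (-0.19, 0.444, where 1.04% of genes were called lower). With only the t1 libraries KLK3 was at -0.64 (adjusted p = 0.00519), where 1.13% were called lower. With the block KLK3 (-0.41 ± 0.06, adjusted p = 0.000537) was joined by KLK2 (-0.23 ± 0.05, 0.0129) and KLK15 (-0.21 ± 0.06, 0.0269), 3 of 6 against 3.14% of genes. Leaving out 1 sample with the block kept KLK3 in all 8 fits, lost KLK15 in all 8, and lost KLK2 without IR replicate 2 of batch 1, vehicle replicate 4 or IR replicate 4 of batch 2.

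In batch 2 alone, the block fit put KLK3 at -0.56 ± 0.16 (adjusted p = 0.0370), 1 of 6 members against 2.03% of genes called lower, and in batch 1 alone at -0.32 ± 0.08 (adjusted p = 0.00485), 1 of 6 against 4.24%. Without the block, edgeR called 0 of 6 in either batch, against 0.353% of genes in batch 2 and 0.819% in batch 1. At an unadjusted p under 0.05 there were 0 of 6 in batch 2, against 3161 of 28651 genes in either direction. In batch 1 there was 1 of 6, against 2969 of 25889 genes. DESeq2 called 0 of 5 in each. In enzalutamide-treated cells IR called 0 of 6 with or without the block, where 1.45% of genes were called lower with it and 0.293% without. At an unadjusted p under 0.05 there were 1 of 6 with the block and 0 without, against 4598 and 2720 of 28651 genes. DESeq2 called 0 of 5. With the block, KLK4 was at 0.10 ± 0.08 and KLK2 at -0.24 ± 0.10 in these cells. With the t1 and t2 libraries of batch 1 summed, the IR effect did not pass a test of the difference between batches for any of the 6 members, with or without the block, at an unadjusted p under 0.05, or by DESeq2, where 0.106% of genes passed without the block and 0.329% with it. With only the t2 libraries of batch 1 the difference, batch 1 less batch 2, did pass for KLK3 (0.63, adjusted p = 0.0363 by edgeR) and KLKP1 (0.78, 0.0151), 2 of 6 members where 10.8% of genes passed in that direction, while KLK2 was at 0.74 (0.0509). With only the t1 libraries it passed for none of these 3, with KLK2 at -0.45 (adjusted p = 0.332 by edgeR), where 452 of 27263 genes passed in either direction.

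The summed batch 1 values hide opposite directions in the t1 and t2 libraries for KLK2 and KLKP1. KLK2 was at 200 and 201 CPM of the library total in the t1 mock libraries and at 136 and 129 in the t1 IR libraries. In the t2 libraries KLK2 was at 140 and 127 CPM in mock and at 184 and 164 in IR. The mock and IR libraries did not overlap in either set, and their order was opposite. How many of all genes did the same was not counted, and 43.7% of genes differed in IR effect between t1 and t2. KLK3 was lower after IR in t1 (from 208 to 144 and from 193 to 123 CPM) and nearly level in t2 (from 160 to 167 and from 150 to 143). KLKP1 was lower in t1 (from 36.4 to 30.9 and from 39.1 to 32.3 CPM) and higher in t2 (from 26.8 to 39.0 and from 24.0 to 33.5). KLK4 and KLK15 were lower after IR in both replicates of t2, while their t1 replicates disagreed. In t1 KLK4 went from 108 to 87.3 and from 78.8 to 99.6 CPM, and KLK15 from 80.0 to 65.7 and from 65.1 to 74.9.

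Fitted on the t1 libraries alone, edgeR gave an IR log2 fold change of -0.68 for KLK2 (adjusted p = 0.00942) and -0.67 for KLK3 (0.0115), 2 of 6 members where 7.52% of genes were called lower. On the t2 libraries alone it gave 0.48 for KLK2 (adjusted p = 0.00511) and 0.59 for KLKP1 (0.00381), where 23.0% of genes were called higher, and -0.33 for KLK4 (0.0261) and -0.30 for KLK15 (0.0488), where 21.7% were called lower. The difference of the 2 IR effects was -1.15 ± 0.18 for KLK2 (adjusted p = 0.000200), -0.92 ± 0.20 for KLKP1 (0.00171) and -0.76 ± 0.19 for KLK3 (0.00508), while KLK4 (0.27 ± 0.22) and KLK15 (0.19 ± 0.20) did not pass. That is 3 of 5 members, in a comparison in which 43.7% of 23335 genes passed and 21.8% passed in this direction.

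**Figure D5:**
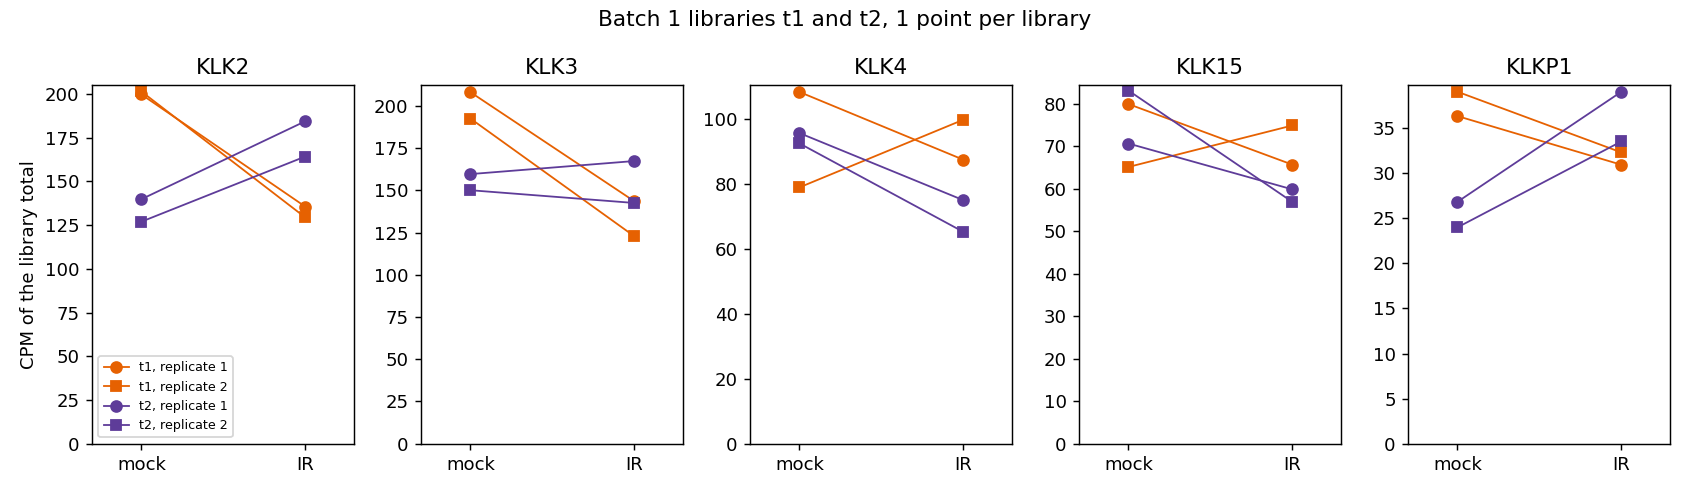
CPM of the library total for 5 kallikrein genes in the 8 libraries of batch 1, with lines joining mock and IR libraries of the same t number and replicate number, and axes starting at 0. For KLK2 and KLKP1 the t1 lines fall and the t2 lines rise, and for KLK3 only the t1 lines fall clearly.

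Genes of a list of androgen-induced genes, which holds none of the members, fell under enzalutamide as well. Of 30 genes, 10 fell and 0 rose without the block, where 0.0628% of all genes were called lower, and 18 fell and 0 rose with it, where 0.667% were. Over the list 28 of 30 log2 fold changes were negative, with a median of -0.34 against 0.0007 for all genes tested. MBOAT2, a lysophospholipid acyltransferase gene, fell by 0.91 ± 0.06 on the log2 scale (adjusted p = 1.91e-05 by edgeR without the block). ZBTB16, a zinc-finger transcription factor gene, fell by 0.83 ± 0.06 (1.91e-05), and SLC45A3, the gene of the prostate membrane protein prostein, by 0.57 ± 0.06 (0.000828). KLK2 matched MBOAT2 and ZBTB16 in size but not in error: its SE without the block was 0.23.

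Of 20 genes for kallikrein inhibitors and substrates 14 could be tested. Without the block 2 were at an unadjusted p under 0.05, against 1780 of 28651 genes, while 1 passed by DESeq2 and 0 by edgeR. With it FN1, the gene of the extracellular matrix protein fibronectin, fell by 0.36 ± 0.06 (adjusted p = 0.00194). PTHLH, which encodes a hormone-like peptide, stood at -0.64 ± 0.24 (0.260), and F2RL1, the gene of a protease-activated receptor, at -0.11 ± 0.08 (0.652).

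None of the 5 flanking genes tested was called for the enzalutamide average, with or without the block. On the KLK1 side, the transcribed pseudogene C19orf48P was at 317 to 465 CPM in batch 2 with an enzalutamide log2 fold change of -0.14 ± 0.06 with the block (adjusted p = 0.349), and TMEM277P, next to KLK1, was at 2.75 to 3.81 CPM with -0.03 ± 0.16 (0.969). On the far side CTU1, which takes part in tRNA modification, was at 23.7 to 30.6 CPM with 0.00 ± 0.07 (0.985). KLK14, the last kallikrein, gave 0.14 ± 0.16 (adjusted p = 0.816). The small nucleolar RNA genes SNORD88C (-0.13 ± 0.18, adjusted p = 0.838) and SNORD88A (0.09 ± 0.16, 0.885) stood at 2.77 to 7.25 CPM in batch 2. SIGLEC9 received 1 to 13 counts and SIGLEC18P 0 to 3, too few to test.

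The genes whose levels ran most like the kallikreins were sought by Pearson's r of log2 CPM over 12 replicate samples, centred on the batch mean, among 18685 genes. This is a description: the samples share treatments, replicate numbers and libraries. For KLK2 the closest were ENSG00000267968 (0.970), FAM174B (0.967), KLK15 (0.967), KLKP1 (0.958) and KLK3 (0.958). For KLK3 they were ABHD2 (0.974), ENSG00000267968 (0.962), KLK2 (0.958), PRR15L (0.947) and ODC1-DT (0.945). KLK2 thus had 3 other members among its 5 closest genes, with KLK4 17th (0.908), where the median over all genes was -0.02. Centred on the replicate number, which removes the gap between replicates 3 and 4, the closest gene to KLK2 was GREB1 (0.991) and to KLK3 C2orf27A (0.987). No member was then among the 5 closest to KLK2 or to KLK3. For KLK2, KLK15 ranked 18th (0.946), KLK3 22nd (0.942), KLKP1 32nd (0.933) and KLK4 101st (0.882), and for KLK3, KLK2 ranked 16th.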

How the data were processed

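PRO-seq was measured in 16 LNCaP libraries. The authors deposited raw counts per gene, 1 table per batch; the values are whole and library totals differ. Per the submitters' processing notes, cutadapt 1.8.1, Bowtie2 2.4.4, SAMtools 1.9 and hg38 were used. The counting tool, annotation, strand use and treatment of duplicate or multiply mapped reads are not given in the sources used here. Of 60605 identifiers, 60463 matched a gene name table; HERC3, with more than 1 identifier, was taken by the one with more counts.

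Genes were kept by filterByExpr (minimum count 10, total 15), scaled by TMM and tested with edgeR 4.0.16 in R 4.3.3 (glmQLFit, glmQLFTest, two-sided), adjusted over all genes, with a threshold of 0.05. All 6 members were kept, except KLK1 in the fit of batch 1 alone on its t2 libraries and in the test of t1 against t2. The 4 groups of batch 2 shared an estimate of the spread. The main fit has no replicate block. Replicate numbers come from the labels, and same-numbered samples deviated together: across genes, replicate differences of 2 groups correlated at 0.360 in batch 1 and 0.247 to 0.440 in the 6 pairs of batch 2 groups. The number was therefore also fitted as a block. SEs were derived from the log2 fold change and its F value. Alternatives were DESeq2 1.42.0, other scalings, no filter, samples left out, and KLK2 and KLK3 summed. Leaving out samples with the block and the ratios between members were added after the data had been seen. Fits were tested on simulated data; ratios were tested by exact permutation (scipy 1.17.1), and promoters aligned with Biopython 1.88.

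Named genes were the 6 members, the 3 with the smallest enzalutamide p in each list, the 4 nearest genes per side (1 was not matched), and the 5 most similar to KLK2 and to KLK3 with a mean of at least 50 counts; C2orf27A and GREB1 were chosen after their values were seen. A planned list of regulators is not reported here. The members, lists and tests were chosen with earlier results of these data known.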

Additional observations from a re-analysis of the deposited data

Results flagged for a closer look

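The IR effects of the t1 and t2 libraries of batch 1 differed for 3 kallikreins by edgeR's test of the difference itself, fitted to 8 libraries, a comparison chosen after the data had been seen. IR effect in t1 less that in t2 was -1.15 for KLK2, -0.92 for KLKP1 and -0.76 for KLK3 on the log2 scale. With the replicate block the values were -1.16, -0.93 and -0.76. Leaving out each library in turn gave -1.22 to -1.02 for KLK2, -1.02 to -0.77 for KLKP1 and -0.85 to -0.59 for KLK3, with adjusted p-values of at most 0.0494. Of all genes tested, 43.7% differed in either direction and 21.8% in the direction of these 3. What t1 and t2 stand for is not stated in the labels, and its part in the IR results was not tested.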

How the results depend on the processing

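Counts were low for KLK3 in batch 2, at 57 to 284 per sample, and for KLK1 throughout. With 2 replicates per group, 1 sample moved many calls. Over 70 alternatives for the 5 members, the enzalutamide average kept its direction and 10 moved it past the threshold. Adjusted p-values over these alternatives ran from 4.58e-32 to 0.998 for KLK2, 9.02e-05 to 0.998 for KLK3, 9.92e-05 to 0.998 for KLK4, 0.000168 to 0.998 for KLK15 and 0.0323 to 0.998 for KLKP1. The call thus depends on the replicate block and on the filter. With the replicate block the values were -0.87 for KLK2, -0.70 for KLK3, -0.37 for KLK4, -0.39 for KLK15 and -0.33 for KLKP1. With no filter and no block, KLK2 (-0.83), KLK3 (-0.67), KLK4 (-0.36) and KLK15 (-0.39) passed, where 180 of 54974 genes were called lower. The adjusted p of 4.58e-32 for KLK2 came from that unfiltered edgeR fit, against 4.67e-08 by edgeR with the block. The cause was not tested. KLK2 and KLK3 summed with the replicate block gave -0.86, an alternative chosen after the data had been seen. For enzalutamide with IR against vehicle, KLK2 was at -1.14 with the block, -1.07 with no filter and -1.14 summed with KLK3 and blocked, and KLK3 at -1.11 and -1.08. Leaving out 1 sample without the block gave -1.68 to -0.65 for KLK2 and -1.48 to -0.76 for KLK3.

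The number of genes called for the enzalutamide average was 18, against 272 with the replicate block, 230 with no filter, 58 by DESeq2 and 7 to 36 with 1 sample left out. Without IR it was 3, against 55, 74, 13 and 2 to 10, and under IR it was 3, against 55, 64, 7 and 1 to 6. For IR in vehicle cells it was 314, against 1315 with the block, 624 with no filter and 161 to 511 with 1 sample left out, and in enzalutamide cells 263, against 951, 556 and 139 to 434. For the interaction it was 0 (343 at an unadjusted p under 0.05, 0 by DESeq2), against 1, 32 and 0 to 4. For both treatments together it was 435, against 3205, 1278 and 157 to 1143. For IR in batch 1 it was 731, against 2332 with the block, 1157 with no filter, 3995 with t1 alone, 9800 with t2 alone and 587 to 1509 with 1 sample left out. Over both batches it was 1182, against 1954 with the block and 657 with t2 alone. For the difference between batches it was 31, against 96 with the block, 119 with no filter, 452 with t1 alone, 5646 with t2 alone and 21 to 45 with 1 sample left out.

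Directions turned mainly in small IR values. In batch 1, t2 alone gave 0.48 for KLK2 and 0.10 for KLK3, and t1 alone -0.34 for KLKP1. Over both batches, t2 alone gave 0.10 for KLK2, 0.18 for KLKP1 and -0.19 for KLK3, which lost its call, while t1 alone gave -0.49 (adjusted p = 0.134), -0.28 (0.233) and -0.64 (0.00519). For batch 1 less batch 2, t2 alone gave 0.74 for KLK2, 0.63 for KLK3 (adjusted p = 0.0363) and 0.78 for KLKP1 (0.0151), against 0.069, 0.18 and 0.21 with both, and t1 alone gave -0.45 for KLK2, -0.17 for KLK3, -0.19 for KLKP1 and 0.067 for KLK15, and scaling by total counts 0.052 for KLK15. With 1 sample left out, IR in vehicle cells ranged over -0.67 to 0.061 for KLK2 and -0.24 to 0.041 for KLK4. IR in enzalutamide cells ranged over -0.84 to 0.37 for KLK2, -0.74 to 0.45 for KLK3, -0.16 to 0.34 for KLK4, -0.37 to 0.13 for KLK15 and -0.27 to 0.073 for KLKP1. The interaction ranged over -0.58 to 0.62 for KLK2, -0.21 to 0.98 for KLK3, -0.065 to 0.44 for KLK4, -0.15 to 0.34 for KLK15 and -0.10 to 0.25 for KLKP1. KLKP1 ranged over -0.0014 to 0.12 in batch 1, and over both batches from -0.11 to 0.043 without the block and from -0.13 to 0.0018 with it. KLK3 over both batches ranged from -0.47 to -0.31. The difference between batches ranged over -0.29 to 0.48 for KLK2, -0.062 to 0.43 for KLK3, -0.30 to 0.030 for KLK4 and -0.21 to 0.14 for KLK15. Beyond the calls given with it in the results, the replicate block changed no call and no direction of a member. Where a sample was left out, the remaining lone sample of its group was assumed to vary like the other groups.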
